A study of Mus musculus with 13 samples.

Results

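This report describes 44 genes of neurons and neuroblasts, of 55487 genes in the deposited table, in magnetically sorted microglia of newborn mice. The genes were chosen by name as markers of neural progenitors, migrating young neurons, the neuronal skeleton and the synapse. This choice was made with earlier results of these data known. Each symbol matched 1 Ensembl gene ID with its version removed. For description they were sorted into 13 progenitor and lineage transcription factors, 4 genes of migration and outgrowth, 11 of the cytoskeleton, 10 of the synapse and excitability, 4 neuronal RNA-binding proteins and 2 other signalling genes. Of the 44 members, 41 had enough reads to be tested; Eomes, Tbr1 and Slc17a7 did not.

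Whole brains of mice on postnatal day 4, not perfused and freed of meninges, were dissociated with papain, and cells were held on a magnetic column by beads against CD11b, a surface protein of microglia and other myeloid cells. The comparison was of control pups (CON) with pups from maternal immune activation (MIA), a model in which the immune system of the pregnant mother is stimulated. The sources used here do not give the strain, the agent, its timing, the sex, the litters or any pooling of animals. Postnatal day 4 is from the titles, and the series text speaks of days 3 to 5. Each group had 5 retained libraries, and the titles mark CON 6, MIA 6 and MIA 7 as excluded, with no reason given in these sources. As nothing says which libraries came from separate litters, p-values measure only the spread between these libraries.

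Neurons are born from dividing progenitors that switch on transcription factors of the SOX, DLX and NEUROD families. The young cells then migrate and extend neurites on a skeleton of microtubules, and at last make synapses, with vesicle proteins on the sending side and glutamate or GABA receptors on the receiving side. In a newborn brain these stages run side by side. Microglia are of a separate, myeloid origin, and they touch neurons and engulf neuronal material. In RNA from sorted cells, a larger number of cells of a type and more RNA per cell cannot be told apart.

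The libraries held 25387055 to 35593541 counts. The 10 microglial markers summed to 14972 to 29170 CPM (counts relative to the library total, scaled by TMM, the trimmed mean of M values) over the 10 retained libraries, while the 44 neuronal members summed to 638 to 1130 CPM. The members took 0.0600 to 0.0699% of the counts in the retained control libraries and 0.0890 to 0.113% in the retained MIA libraries. Stmn1, which dividing cells of many types use, averaged 297 of 662 CPM of the member sum in CON and 325 of 944 CPM in MIA. CON 1 and CON 2 stood apart from the others in other gene groups. Their 12 dissociation and immediate early genes summed to 2659 and 2442 CPM against 6388 to 10640 CPM in the other 8 retained libraries, and their red blood cell genes to 61.3 and 80.1 CPM against 1160 to 3048 CPM. In CON 1 the astrocyte and radial glia markers were at 1024 CPM, the highest of the 10, and the cell cycle genes at 738 CPM, the lowest. Choroid plexus and ependyma genes summed to 15694 CPM in CON 1, also the highest of the 10. They ranged from 34.2 to 7827 CPM in the other retained controls and from 749 to 12696 CPM in the retained MIA libraries.

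The stretches before the start sites of 5 members are shown for description only, and no result rests on these sequences. Sox11 rose and its close relative Sox4 did not pass. Map1b and Tubb3 are cytoskeletal genes that rose, and Gria2 is a receptor gene that rose. Each line gives the 250 bases upstream of the RefSeq start (build GRCm38.p6), 5′ to 3′ on the strand of the gene. Capitals mark short motifs found on either strand: the E-boxes CAGATG and CAGCTG, letters read by basic helix-loop-helix factors such as NEUROD, the SOX motif ACAAAG, the CCAAT box, the TATA box TATAAA, and TTCAGCACC and GGACAGC, the left and right parts of RE1, the element of the repressor REST. Matches of different motifs could overlap.
Sox11 (chr12:27342719-27342968, minus strand): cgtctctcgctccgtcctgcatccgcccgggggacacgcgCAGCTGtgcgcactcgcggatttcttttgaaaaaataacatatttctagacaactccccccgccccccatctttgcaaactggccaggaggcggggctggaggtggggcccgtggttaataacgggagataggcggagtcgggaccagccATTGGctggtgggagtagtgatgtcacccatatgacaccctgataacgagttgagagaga
Sox4 (chr13:28953700-28953949, minus strand): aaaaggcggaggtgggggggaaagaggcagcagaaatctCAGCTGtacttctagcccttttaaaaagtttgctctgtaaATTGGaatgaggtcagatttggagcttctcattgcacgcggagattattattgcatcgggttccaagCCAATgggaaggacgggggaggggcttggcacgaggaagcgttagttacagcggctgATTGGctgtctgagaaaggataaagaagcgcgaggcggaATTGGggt
Map1b (chr13:99516603-99516852, minus strand): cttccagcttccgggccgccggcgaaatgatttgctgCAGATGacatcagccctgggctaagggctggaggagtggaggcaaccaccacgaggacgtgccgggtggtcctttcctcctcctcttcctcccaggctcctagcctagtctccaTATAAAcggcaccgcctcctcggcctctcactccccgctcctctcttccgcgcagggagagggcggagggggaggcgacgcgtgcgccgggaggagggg
Tubb3 (chr8:123411303-123411552, plus strand): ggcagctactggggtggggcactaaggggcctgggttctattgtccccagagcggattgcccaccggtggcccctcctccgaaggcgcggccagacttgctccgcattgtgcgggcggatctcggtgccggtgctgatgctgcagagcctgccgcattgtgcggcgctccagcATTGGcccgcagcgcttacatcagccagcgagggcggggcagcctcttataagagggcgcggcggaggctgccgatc
Gria2 (chr3:80802836-80803085, minus strand): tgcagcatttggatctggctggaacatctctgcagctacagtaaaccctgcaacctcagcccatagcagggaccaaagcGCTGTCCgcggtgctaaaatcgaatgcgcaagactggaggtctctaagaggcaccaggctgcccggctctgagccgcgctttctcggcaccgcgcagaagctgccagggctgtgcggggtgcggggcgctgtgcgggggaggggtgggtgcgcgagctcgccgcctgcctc

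Sox11 and Sox4 each held 1 CAGCTG, at 210 and 211 bases before the start, and Sox11 held 1 CCAAT box where Sox4 held 4. Map1b held the E-box CAGATG and a TATA box, Tubb3 a CCAAT box and Gria2 the right part of RE1 in reverse, GCTGTCC. Of the 44 members 30 had an entry in the RefSeq table, with 37 windows. CAGATG stood in 24.3% of the members' windows and 14.4% of all 32851 windows, CAGCTG in 18.9% and 13%, ACAAAG in 29.7% and 16.5%, CCAAT in 51.4% and 33.8%, TATAAA in 18.9% and 12.4%, and GGACAGC in 8.11% and 5.28%. TTCAGCACC was in none of the members' windows and 0.301% of all. These are matches of letters, and binding was not measured.

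From lineage transcription factors to glutamate receptors, neuronal transcripts were low beside microglial ones and many were higher in MIA. Of the 41 tested members, 20 (48.8%) rose and none fell at an edgeR adjusted p under 0.05. Among all 15511 genes tested, 5.75% rose and 4.58% fell. The members were chosen with earlier results of these data known, so the gap between these shares is descriptive only. No member fell at an unadjusted p under 0.05 in edgeR, or at an adjusted p under 0.05 in DESeq2 or limma-voom. The median log2 fold change was 0.97 over the 41 members and −0.0085 over all genes tested. In 17 members (41.5%) the 5 retained MIA libraries lay above the 5 retained control libraries, as they did in 5.59% of all genes tested. The rises ran from 1.61-fold for Pkia to 5.06-fold for Syt16, and 14 of the 20 were at least 2-fold.

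The roles moved by different amounts, which were not tested against each other. The median log2 fold change was 1.43 in the synapse and excitability group, 1.15 among the transcription factors, 0.97 in migration and outgrowth, 0.82 in the cytoskeleton and 0.29 among the RNA-binding proteins. The count of members that rose was 5 of 9, 5 of 11, 3 of 4, 5 of 11 and 0 of 4 in that order. Further lists of the same roles, described below, were ordered otherwise. Their medians were 0.49 for synapse and excitability, 0.21 for progenitor factors and 0.76 for migration and outgrowth. They were 0.43 for the cytoskeleton and 0.90 for RNA-binding proteins. The order of the roles thus holds for these members only. Per kilobase of exon, control levels also differed widely: Stmn1 was at 155 CPM per kb, Tubb2b at 10.9 and Tubb3 at 10.2, while Snap25 was at 0.246 and Syt16 at 0.0382. The larger folds in the synaptic group therefore rest on lower levels, with standard errors of 0.27 to 0.59 on the log2 scale.

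**Figure D1:**
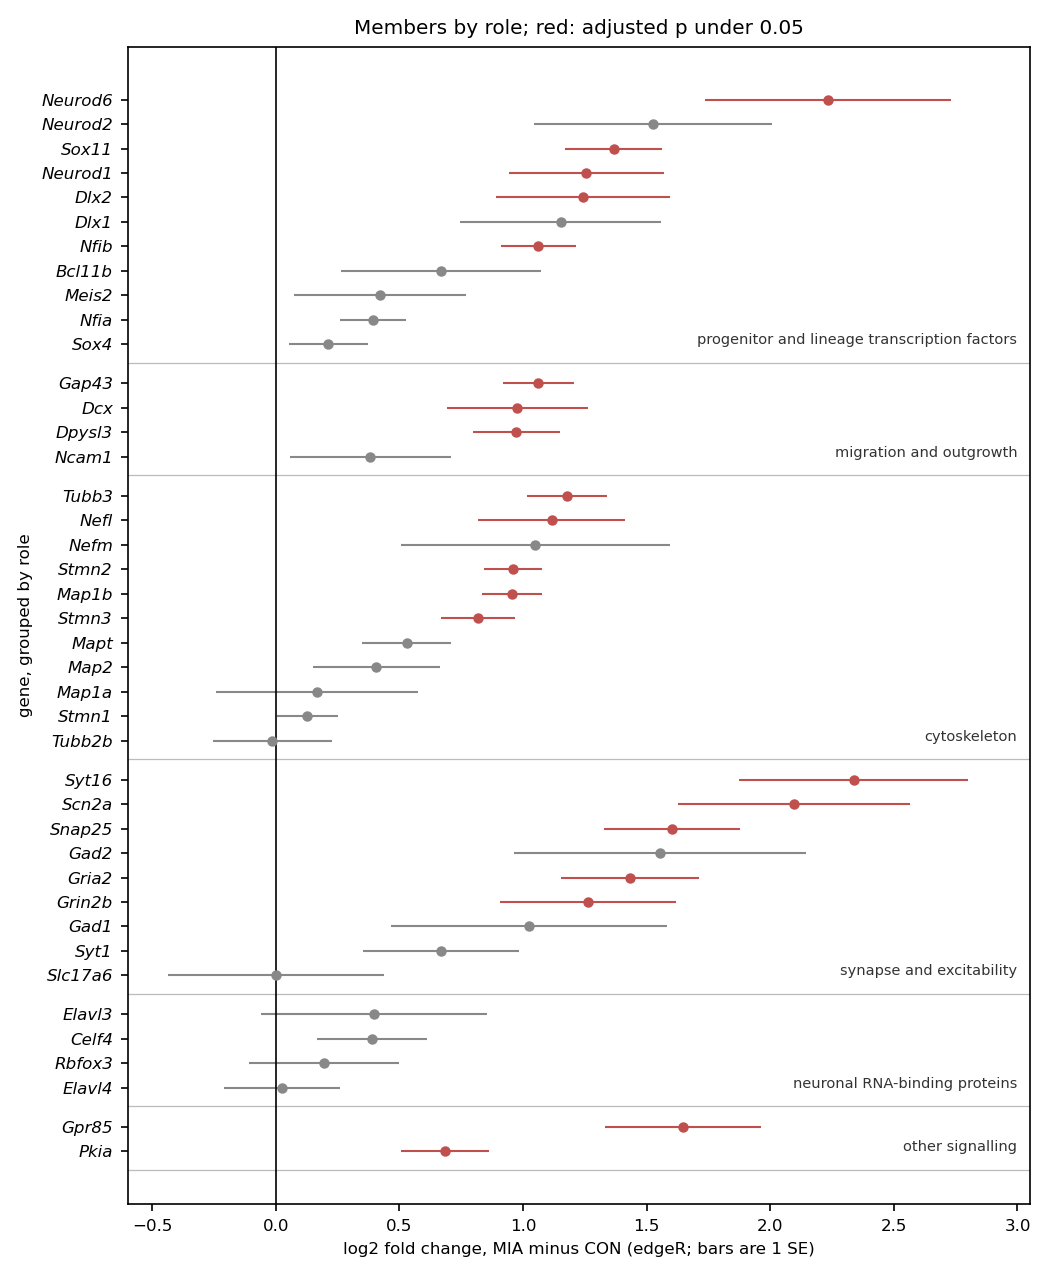
Log2 fold change of each of the 41 tested members (horizontal axis, MIA minus CON, edgeR) with 1 standard error, grouped by role; red points have an adjusted p under 0.05. The 20 red points all lie to the right of 0, and the 4 RNA-binding protein genes are grey.

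Among the transcription factors, Sox11, a SOX protein of newborn neurons, rose 2.58-fold. It was at 12.4, 11.7, 12.6, 13.5 and 16.1 CPM in CON 1 to CON 5 and at 27.5, 55.6, 28.8, 32.4 and 26.9 CPM in MIA 1 to MIA 5. Every MIA library was above every control library, and MIA 2 stood far above the other 4. Its log2 fold change was 1.37 ± 0.20 (SE; edgeR adjusted p = 0.000844). Nfib, a nuclear factor of neural progenitors that glia use as well, was at 38.2, 32.8, 26.5, 23.9 and 21.8 CPM in the controls and at 52.5, 73.8, 59.6, 55.5 and 57.4 CPM in MIA. The groups did not overlap, and the log2 fold change was 1.06 ± 0.15 (SE; edgeR adjusted p = 0.000799).

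Of the 3 NEUROD factors, which drive differentiation of excitatory neurons, Neurod6 and Neurod1 rose. Neurod6, a factor of young cortical projection neurons, was at 0.448, 0.145, 0.611, 0.789 and 1.32 CPM in CON and at 2.84, 4.06, 4.68, 2.17 and 1.97 CPM in MIA. Its groups did not overlap, and its rise of 4.70-fold (log2 2.23 ± 0.50, SE; edgeR adjusted p = 0.0115) was the largest among the transcription factors. Neurod1, which is strong in granule neurons of the cerebellum, was at 4.13, 1.74, 3.90, 3.64 and 4.03 CPM in CON and at 4.76, 12.8, 10.9, 7.72 and 5.60 CPM in MIA. The groups lay close, with MIA 1 just above CON 1, and the log2 fold change was 1.26 ± 0.31 (SE; edgeR adjusted p = 0.0215). Neurod1 lost its call without MIA 2 or MIA 3 (adjusted p up to 0.0585). Neurod2 was at 0.531 ± 0.354 and 1.55 ± 0.565 CPM (SD, n = 5 each) and did not pass (edgeR adjusted p = 0.0651). It passed without CON 3 (0.0220), in DESeq2 (0.0243) and in limma-voom (0.0475).

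Of the DLX factors of inhibitory interneuron precursors, Dlx2 was at 1.27, 0.872, 1.19, 1.40 and 1.92 CPM in CON and at 1.92, 5.53, 2.95, 2.96 and 2.43 CPM in MIA. CON 5 and MIA 1 met at the same level, and MIA 2 was the highest. Its log2 fold change was 1.24 ± 0.35 (SE; edgeR adjusted p = 0.0400), and the call held in the fits that lacked CON 1, CON 5 or MIA 1 and was lost in those that lacked CON 2, CON 3, CON 4, MIA 2, MIA 3, MIA 4 or MIA 5 (largest adjusted p 0.117). Dlx2 passed in DESeq2 (adjusted p = 0.00831) and did not pass in limma-voom (adjusted p = 0.0560). Dlx1 was at 1.42 ± 0.751 and 3.16 ± 1.25 CPM (SD, n = 5 each; edgeR adjusted p = 0.0981), and passed without CON 3 (0.0418) and in DESeq2 (0.0434). Its counts were not whole in 61.5% of nonzero values, and the antisense gene Dlx1as overlaps it in GENCODE M21, so part of its reads may belong elsewhere.

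The remaining lineage factors did not pass in edgeR, and DESeq2 called Nfia among them (adjusted p = 0.0482). Nfia, a sister of Nfib, was at 55.2, 39.5, 35.2, 34.7 and 40.8 CPM in CON and at 43.1, 57.3, 57.7, 53.1 and 58.5 CPM in MIA (edgeR adjusted p = 0.0829). CON 1 alone among the controls lay inside the MIA range, and Nfia passed without CON 1 (0.00461) or MIA 1 (0.0454). Sox4, of the same SOX subgroup as Sox11, was at 13.7, 16.8, 10.9, 10.5 and 15.4 CPM in CON and at 14.6, 17.8, 18.2, 13.7 and 13.5 CPM in MIA. Its groups overlapped (edgeR adjusted p = 0.491), and the antisense gene Gm26735 overlaps it in GENCODE M21. Meis2, of striatal and olfactory interneuron lineages, was at 1.92 ± 0.774 and 2.57 ± 0.781 CPM, and Bcl11b, of deep-layer and striatal neurons, at 0.785 ± 0.258 and 1.25 ± 0.441 CPM. Eomes, of intermediate cortical progenitors, reached 1.16 CPM in MIA 2 and had 0 counts in CON 4, CON 5, MIA 1 and MIA 4. Tbr1, of early cortical neurons, lay between 0 and 0.525 CPM. A count of 0 allows 0.0873 to 0.117 CPM by counting error alone, so levels this low cannot be ranked.

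**Figure D2:**
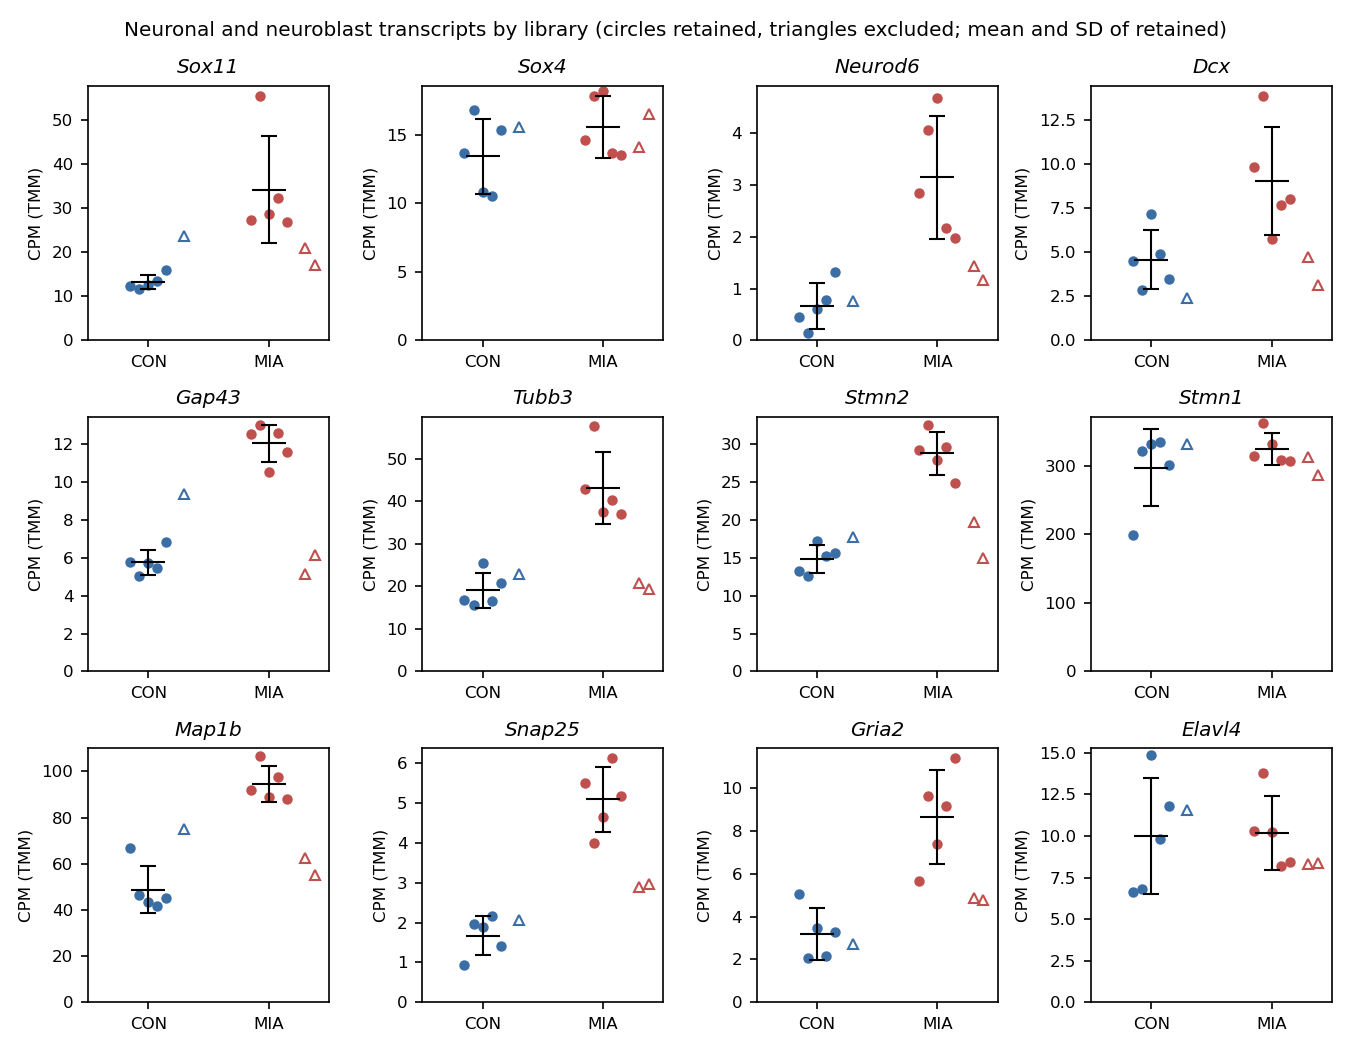
CPM (vertical axes, each from 0) of 12 members in the 5 retained libraries of each group (circles, with mean and SD as black bars) and in the 3 excluded ones (open triangles). Sox11, Gap43, Tubb3, Stmn2, Map1b, Snap25 and Gria2 do not overlap between the retained groups, Sox4, Stmn1 and Elavl4 do, and the excluded MIA libraries lie low for Gap43 and Tubb3.

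In migration and outgrowth, 3 of 4 genes rose. Gap43, a protein of growth cones, was at 5.79, 5.02, 5.73, 5.46 and 6.81 CPM in CON and at 12.5, 13, 10.5, 12.6 and 11.6 CPM in MIA. Both groups were tight and did not overlap, and the log2 fold change was 1.06 ± 0.14 (SE; edgeR adjusted p = 0.000525). Dpysl3, a collapsin response protein of growing axons, was at 18.0, 11.7, 14.6, 9.77 and 10.2 CPM in CON and at 24.1, 30.7, 20.2, 26.5 and 24.7 CPM in MIA. The groups did not overlap, with CON 1 the highest control and MIA 2 the highest MIA library, and the log2 fold change was 0.97 ± 0.18 (SE; edgeR adjusted p = 0.00338).

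Dcx, doublecortin, which steadies microtubules in migrating neurons, was at 4.48, 2.84, 7.16, 4.91 and 3.50 CPM in CON and at 9.82, 13.8, 5.74, 7.69 and 8.04 CPM in MIA. CON 3 lay above MIA 3, so the groups overlapped. The log2 fold change of 0.98 just passed (edgeR adjusted p = 0.0451) and was lost in the 7 fits that lacked CON 2, CON 4, CON 5, MIA 1, MIA 2, MIA 4 or MIA 5 (largest adjusted p 0.121). Dcx passed in DESeq2 (adjusted p = 0.00985) and did not pass in limma-voom (adjusted p = 0.0553). The adhesion molecule gene Ncam1, which glia also express, was at 74.1, 27.7, 26.5, 26.2 and 24.6 CPM in CON and at 35.0, 62.7, 39.4, 48.3 and 47.9 CPM in MIA. CON 1 alone lay above the MIA libraries, and 4 controls lay below them. Ncam1 had an edgeR adjusted p of 0.554, and of 0.00208 without CON 1 (log2 fold change 0.83). Astrocyte markers and choroid plexus and ependyma genes were also highest in CON 1. The part of those cells in the Ncam1 value was not tested.

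Of the 11 cytoskeleton genes, Tubb3, Stmn2, Stmn3, Map1b and Nefl rose. Tubb3, the neuron-specific beta tubulin, was at 16.7, 15.5, 25.6, 16.6 and 20.8 CPM in CON and at 42.9, 57.7, 37.5, 40.2 and 37.1 CPM in MIA. The lowest MIA library was above the highest control library (log2 fold change 1.18 ± 0.16, SE; edgeR adjusted p = 0.000607). Stmn2, a stathmin of growth cones that frees tubulin from microtubules, was at 13.3, 12.6, 17.3, 15.3 and 15.6 CPM in CON and at 29.2, 32.6, 27.9, 29.6 and 24.8 CPM in MIA. It had the lowest adjusted p of the members (0.000291, edgeR) and a log2 fold change of 0.96 ± 0.12 (SE). Stmn3, the third stathmin here, was at 7.17, 7.16, 9.89, 7.13 and 7.60 CPM in CON and at 14.0, 16.1, 13.6, 13.9 and 11.1 CPM in MIA, again with no overlap (log2 fold change 0.82; edgeR adjusted p = 0.00384).

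Map1b, the microtubule-associated protein of growing axons, was at 66.8, 46.7, 43.3, 41.8 and 45.3 CPM in CON and at 92.1, 107, 88.7, 97.4 and 87.9 CPM in MIA. The groups did not overlap although CON 1 stood above the other controls, and the log2 fold change was 0.96 ± 0.12 (SE; edgeR adjusted p = 0.000428). Nefl, the light neurofilament chain of axons, was at 3.45, 2.44, 3.32, 3.19 and 1.64 CPM in CON and at 6.95, 5.53, 4.11, 9.60 and 4.23 CPM in MIA. MIA 4 was the highest, and the call (log2 fold change 1.12; edgeR adjusted p = 0.0293) was lost without CON 2, CON 5, MIA 1 or MIA 4 (adjusted p up to 0.0969). Nefl and Nefm overlap on opposite strands over 1108 exon bases in GENCODE M21, and the library kit does not mark the strand, so reads there cannot be told apart.

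Stmn1, the stathmin that dividing cells of many types use, was by far the most abundant member per kilobase and did not pass. It was at 199, 321, 331, 334 and 301 CPM in CON and at 315, 363, 331, 309 and 306 CPM in MIA, with CON 1 alone low. Cell cycle genes, at 738 CPM in CON 1 and 1157 to 1327 CPM in the other 4 controls, were low in the same library, and their part in the Stmn1 value was not tested. Tubb2b was at 43.5, 13.9, 22.2, 22.1 and 23.1 CPM in CON and at 21.2, 29.8, 24.1, 25.4 and 23.0 CPM in MIA, with the highest and the lowest library both among the controls. For both genes 92.3% of nonzero values were not whole, the mark of reads shared with similar sequences, so their levels are uncertain.

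Of the genes of the mature neuronal skeleton, Map2, Mapt, Map1a and Nefm did not pass in edgeR. Map2, of dendrites, was at 15.7 ± 6.50 and 20.8 ± 6.17 CPM (SD, n = 5 each; edgeR adjusted p = 0.396), and passed without CON 1 (adjusted p = 0.0293). Mapt, the tau gene of axons, was at 6.31 ± 1.17 and 9.11 ± 1.23 CPM (edgeR adjusted p = 0.0860), with only MIA 5 of the MIA libraries inside the control range; in DESeq2 it passed (adjusted p = 0.0430). Map1a was at 3.39 ± 2.07 and 3.80 ± 1.68 CPM, and Nefm at 0.907 ± 0.607 and 1.87 ± 0.636 CPM.

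On the sending side of the synapse, Snap25, which fuses vesicles with the membrane, was at 0.930, 1.96, 1.89, 2.15 and 1.42 CPM in CON and at 5.49, 3.98, 4.65, 6.11 and 5.18 CPM in MIA. The groups did not overlap (3.03-fold; log2 fold change 1.60 ± 0.27, SE; edgeR adjusted p = 0.00244). The calcium sensor of vesicle release Syt1 was at 6.24, 2.54, 2.27, 4.67 and 3.50 CPM in CON and at 8.04, 5.73, 3.46, 7.54 and 5.78 CPM in MIA and did not pass (edgeR adjusted p = 0.229). Syt16, an unusual member of the synaptotagmin family, was at 0.379, 0.145, 0.378, 0.212 and 0.630 CPM in CON and at 1.16, 1.66, 1.97, 1.54 and 2.61 CPM in MIA. Its fold was the largest of the members (log2 2.34 ± 0.46, SE; edgeR adjusted p = 0.00580) and rests on as few as 4 counts in a library.

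On the receiving side, Gria2, a subunit of AMPA-type glutamate receptors, was at 5.03, 2.07, 3.46, 2.15 and 3.28 CPM in CON and at 5.66, 9.63, 7.37, 9.15 and 11.4 CPM in MIA. The groups did not overlap (log2 fold change 1.43 ± 0.28, SE; edgeR adjusted p = 0.00533). Grin2b, the NMDA receptor subunit of the young brain, was at 0.965, 1.35, 1.05, 0.546 and 1.32 CPM in CON and at 3.37, 2.01, 1.56, 2.85 and 2.75 CPM in MIA. The groups did not overlap (edgeR adjusted p = 0.0389), but the call was lost in the fits that lacked CON 2, CON 3, CON 4, CON 5, MIA 1, MIA 4 or MIA 5 (largest adjusted p 0.0997). Scn2a, a sodium channel of the axon, was at 1.03, 0.291, 0.378, 0.273 and 0.756 CPM in CON and at 1.65, 3.68, 2.04, 1.61 and 2.75 CPM in MIA, a 4.27-fold rise with no overlap (edgeR adjusted p = 0.0118).

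The transmitter genes did not pass. Of the GABA-making enzymes, Gad1 was at 0.448, 1.20, 1.89, 0.485 and 0.441 CPM in CON and at 0.992, 1.47, 1.73, 0.900 and 4.02 CPM in MIA, with MIA 5 alone above the controls (edgeR adjusted p = 0.312). Gad2 was at 0.669 ± 0.412 and 1.98 ± 1.26 CPM (SD, n = 5 each; edgeR adjusted p = 0.126). The vesicular glutamate transporter gene Slc17a6 was at 1.34 ± 0.566 and 1.34 ± 0.661 CPM. Its relative Slc17a7 never exceeded 0.116 CPM in the retained libraries, close to what a count of 0 allows.

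None of the 4 neuronal RNA-binding protein genes passed in edgeR, DESeq2 or limma-voom, or at an unadjusted p under 0.05 in edgeR. Elavl4, which steadies neuronal messages, was at 6.65, 6.83, 14.9, 9.83 and 11.8 CPM in CON and at 10.3, 13.8, 10.2, 8.17 and 8.42 CPM in MIA, inside the control range. Celf4, a splicing and translation regulator, was at 3.86, 2.62, 3.84, 2.79 and 3.15 CPM in CON and at 3.24, 4.99, 4.48, 4.05 and 4.55 CPM in MIA, with MIA 1 inside the control range. Rbfox3, the NeuN antigen of mature neurons, was at 2.61 ± 0.478 and 2.98 ± 1.11 CPM (SD, n = 5 each), and Elavl3 at 1.36 ± 0.690 and 1.79 ± 0.661 CPM. The remaining members, of other signalling, both rose. Gpr85, an orphan receptor of the brain, was at 3.62, 2.87, 2.71, 1.88 and 1.20 CPM in CON and at 8.20, 11.8, 5.43, 6.94 and 6.03 CPM in MIA, a 3.13-fold rise with no overlap (edgeR adjusted p = 0.00475). Pkia, an inhibitor of protein kinase A, was at 31.7, 24.2, 15.7, 16.4 and 19.4 CPM in CON and at 37.1, 38.2, 30.2, 36.2 and 30.4 CPM in MIA, with CON 1 inside the MIA range. Its call (edgeR adjusted p = 0.0271) was lost in the fits that lacked CON 3, CON 4, CON 5, MIA 1, MIA 2 or MIA 4 (adjusted p up to 0.0700).

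Pairs of members were compared as ratios within each library, which cancels the scaling of libraries. Of 11 pairs with both genes tested, 3 differed between the groups, each with a 2-sided exact permutation p of 0.00794, the smallest that 5 against 5 libraries allow, and an adjusted p of 0.0291. The Sox11/Sox4 log2 ratio averaged −0.0027 ± 0.34 among the controls and 1.09 ± 0.37 among the MIA libraries (SD, n = 5 each). Stmn2/Stmn1 went from −4.30 ± 0.28 to −3.49 ± 0.099, and Tubb3/Tubb2b from −0.31 ± 0.64 to 0.79 ± 0.18, with no overlap in any of the 3. The pairs were chosen with earlier results of these data known. In these 3 the first genes, Sox11, Stmn2 and Tubb3, rose on their own. The second genes, Sox4, Stmn1 and Tubb2b, did not pass on their own. The ratios are therefore not evidence separate from the single-gene results. The levels of Stmn1 and Tubb2b are uncertain, as given above. When MIA 1, MIA 2, MIA 3, MIA 4 or MIA 5 was dropped singly, none of the 3 passed (adjusted p 0.0582 to 0.0873 by the same exact test). When a retained control was dropped singly, all 3 passed (adjusted p 0.0218 to 0.0291 by the same test). The groups stayed apart in all 3 ratios whichever library was dropped. With so few libraries the exact test takes only coarse steps, so these losses say little about stability.

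The other 8 pairs did not pass. Neurod1/Neurod6 differed by −1.10 and Map1b/Map2 by 0.53 on the log2 scale (exact permutation adjusted p = 0.0524 for each). Snap25/Syt1 differed by 0.91 (0.160) and Gad1/Slc17a6 by 1.03 (0.162), with wide spread among the controls. Without CON 3, Neurod1/Neurod6, Map1b/Map2, Snap25/Syt1 and Gad1/Slc17a6 passed (exact adjusted p = 0.0499), as did Neurod1/Neurod6 without CON 5 (0.0218). Dcx/Gap43 differed by −0.080, Nefl/Nefm by −0.20, Gria2/Grin2b by 0.23 and Elavl3/Elavl4 by 0.43 on the log2 scale. The pair Dlx2/Eomes had too few Eomes reads.

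**Figure D3:**
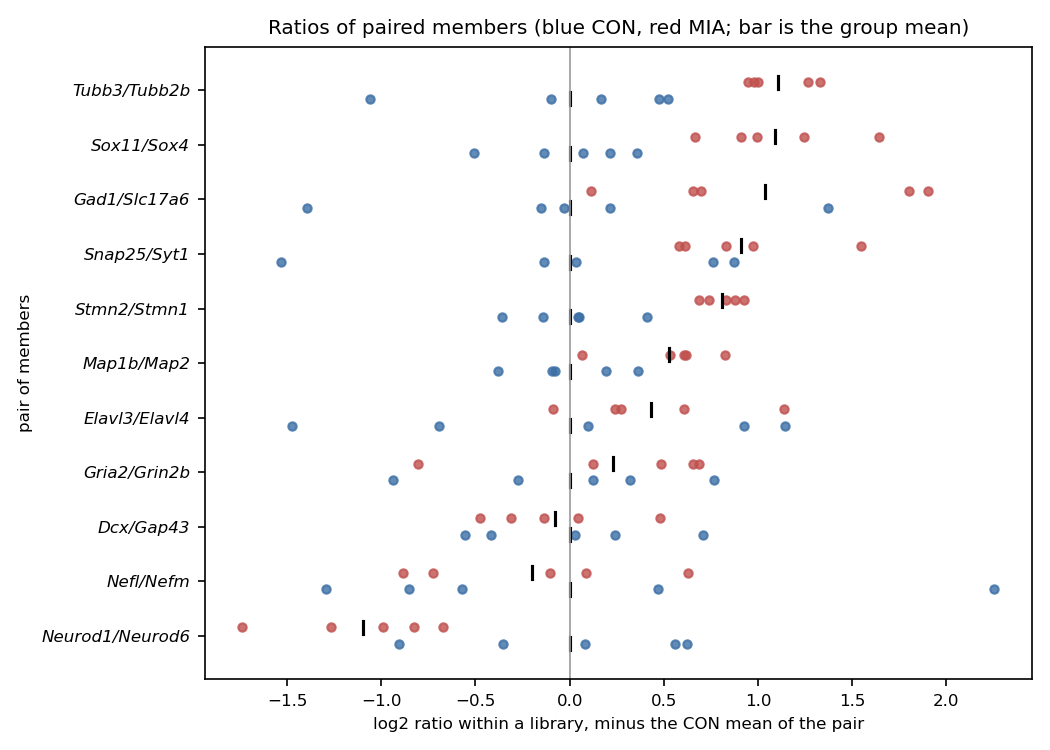
Log2 ratio of 11 pairs of members in each retained library (horizontal axis, the mean of the 5 control libraries set to 0), blue for CON and red for MIA, with black bars at the group means. Red and blue points are apart for Tubb3/Tubb2b, Sox11/Sox4 and Stmn2/Stmn1 and overlap for pairs such as Dcx/Gap43.

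Other neuronal genes were read from further lists of the same roles, and from lists of cerebellar granule neurons and of monoamine and acetylcholine neurons. The totals that follow cover all these lists, and Ddc, of the last list, is among the genes that rose. Of 81 tested, 14 (17.3%) rose in edgeR, against 5.75% of all genes, and none fell in edgeR, and none fell at an unadjusted p under 0.05 or in DESeq2 or limma-voom; their median log2 fold change was 0.50. Among 15 further genes of migration and outgrowth 4 rose, with Crmp1 from 14.4 ± 4.27 to 42.8 ± 9.08 CPM, Cntn2 from 1.79 ± 0.480 to 5.45 ± 3.74 and Nrep from 287 ± 29.0 to 539 ± 49.5 CPM (SD, n = 5 each). In the excluded CON 6, MIA 6 and MIA 7, Nrep was at 505, 434 and 491 CPM, against 481 to 584 CPM in the retained MIA libraries. Which cells held the Nrep RNA was not tested. Dpysl5 rose by 0.99 on the log2 scale, and Dpysl2 was at 514 ± 57.8 and 496 ± 67.7 CPM. Among 29 further synaptic and channel genes 5 rose, among them the complexin genes Cplx1 and Cplx2 and the vesicle gene Syn1. Of 7 further RNA-binding protein genes 3 rose, Elavl2, Nova2 and Ptbp2, by 1.71, 1.10 and 0.61 on the log2 scale, and of 12 further skeleton genes 1 rose, Tuba1a, by 0.54. Tubb2a, at 216 ± 21.7 and 210 ± 12.2 CPM, was abundant and did not pass. None of 10 further progenitor factors passed in edgeR, DESeq2 or limma-voom (2 at an unadjusted p under 0.05 in edgeR), with Nes at 51.4 ± 10.2 and 66.6 ± 9.54 CPM and Hes5 at 5.19 ± 2.33 and 7.63 ± 2.15 CPM. The count of 14 was 23 without CON 1, 6 without CON 2, 9 without CON 5, 7 without MIA 2, 8 without MIA 4 and 4 (4.94%) with all 13 libraries, where 2.71% of all genes rose.

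**Figure D4:**
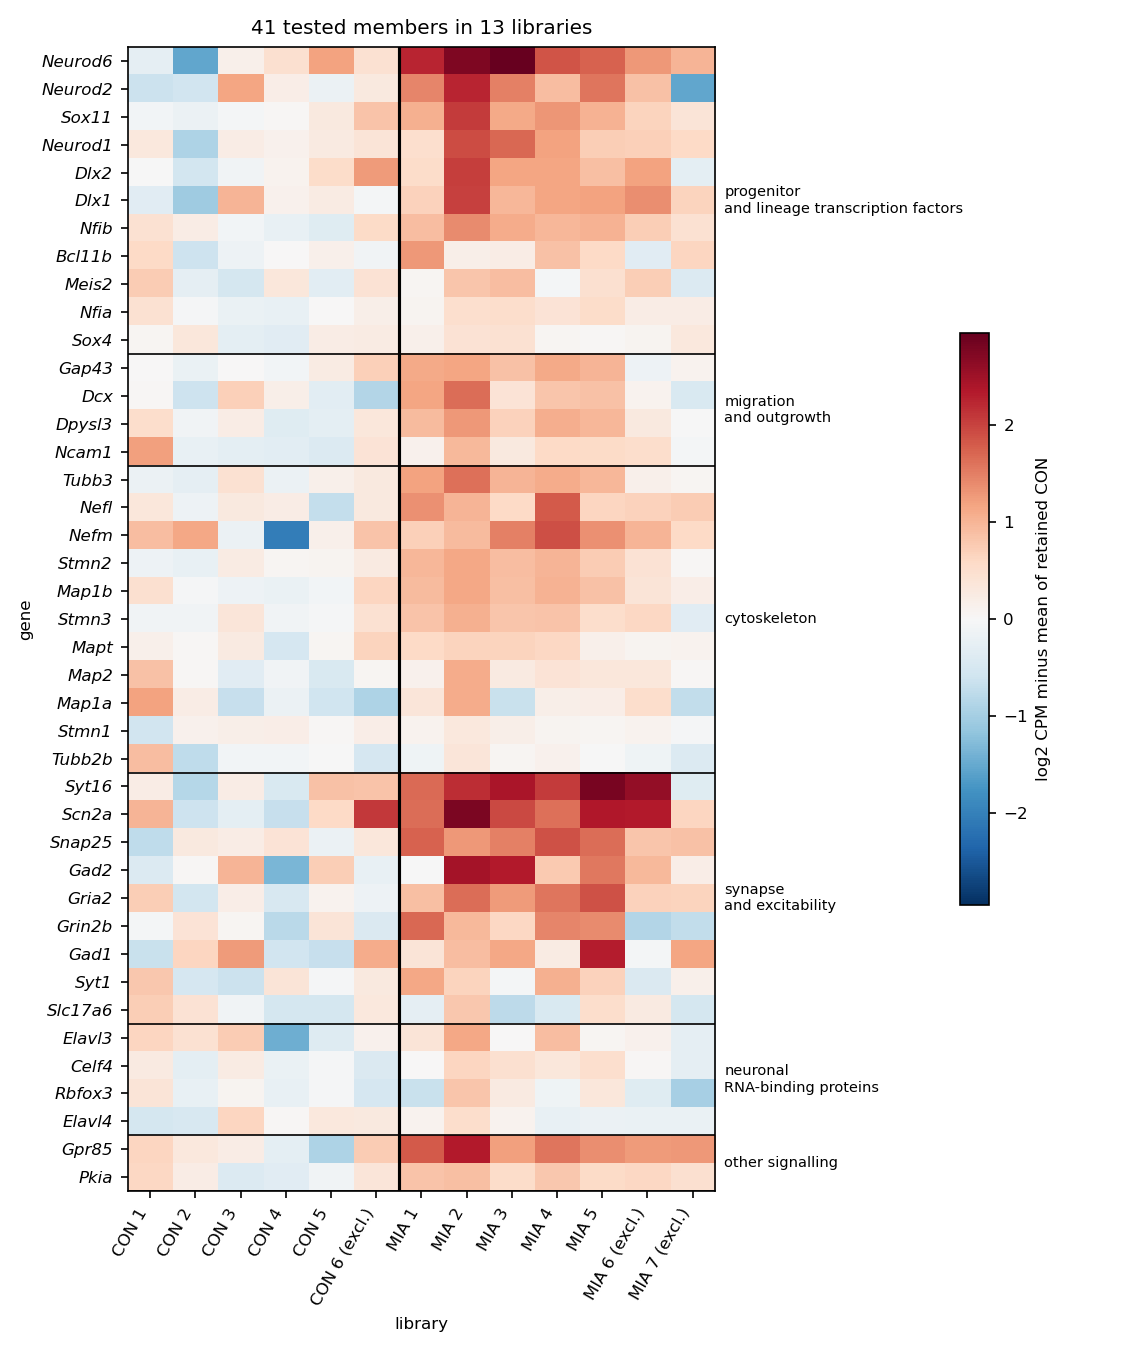
Log2 CPM of the 41 tested members (rows, by role) in all 13 libraries (columns), each minus the mean of the retained controls; red is above and blue below that mean. The mean of the transcription factors is highest in the column of MIA 2 (3.24 log2 CPM), and the columns of MIA 6 and MIA 7 are paler than those of MIA 1 to MIA 5 for the cytoskeleton.

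Single libraries differed in how much of this RNA they held. MIA 2 was the highest of the 5 retained MIA libraries in 27 of the 41 members, and CON 1 the highest of the retained controls in 20. In the excluded CON 6, MIA 6 and MIA 7, Sox11 was at 23.6, 21.0 and 17.2 CPM, Tubb3 at 22.9, 20.9 and 19.3 CPM, Gap43 at 9.38, 5.14 and 6.14 CPM and Snap25 at 2.05, 2.89 and 2.96 CPM. All 12 of these values lay below the lowest retained MIA library. Of the 20 members that rose, MIA 7 lay below every retained MIA library in 17 and MIA 6 in 12, and 14 and 8 were at or below the highest retained control. CON 6 lay above every retained control in 10 of the 20 and below every retained MIA library in 18. With all 13 libraries placed in their labelled groups, 13 of 41 members (31.7%) rose, against 2.71% of all genes, and these 13 were among the 20. Dlx2, Dcx, Dpysl3, Gap43, Stmn3, Grin2b and Scn2a lost their calls there (edgeR adjusted p 0.0571 for Dpysl3 to 0.251 for Dlx2). Without CON 1 and CON 2, 20 of 41 (48.8%) rose against 6.83% of all genes. Of these 17 were among the first 20, and Ncam1, Nfia and Map2 were gained. Dlx2, Dcx and Grin2b lost their calls in that fit (edgeR adjusted p = 0.103, 0.114 and 0.0536).

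Endothelial transcripts moved with the neuronal ones. All 10 endothelial markers rose, and their sum was 872 to 1451 CPM in the retained controls and 2628 to 4425 CPM in MIA, while 9 of 10 microglial markers fell, from 22749 to 29170 CPM in sum to 14972 to 19244 CPM. None of 10 astrocyte and radial glia markers passed in edgeR, DESeq2 or limma-voom (1 at an unadjusted p under 0.05 in edgeR), with sums of 343 to 1024 and 561 to 963 CPM, and 1 of 11 oligodendrocyte lineage markers rose, with sums of 174 to 233 and 175 to 284 CPM. Mural cell and fibroblast markers summed to 642 to 1003 and 887 to 1262 CPM, and 3 of 10 rose. No gene of the choroid plexus, red blood cell, dissociation or cell cycle lists passed in edgeR, where 1 of them, of choroid plexus, had an unadjusted p under 0.05. DESeq2 called 1 choroid plexus gene and limma-voom none. No marker in these lists was at 0 in all libraries. Within MIA the orders differed: the mean log2 CPM of the transcription factors was highest in MIA 2 (3.24) and that of the endothelial markers in MIA 3 (7.92), where MIA 2 was lowest (7.25). In the excluded CON 6 the endothelial mean was 7.24, against 5.74 to 6.39 in the retained controls, while its synaptic mean was 0.64, against −0.28 to 0.38 in the retained controls and 1.16 to 1.86 in the retained MIA libraries. MIA 7 had an endothelial mean of 7.20 and a synaptic mean of 0.40. The part of other cell types, or of depth, in the neuronal values was not tested.

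**Figure D5:**
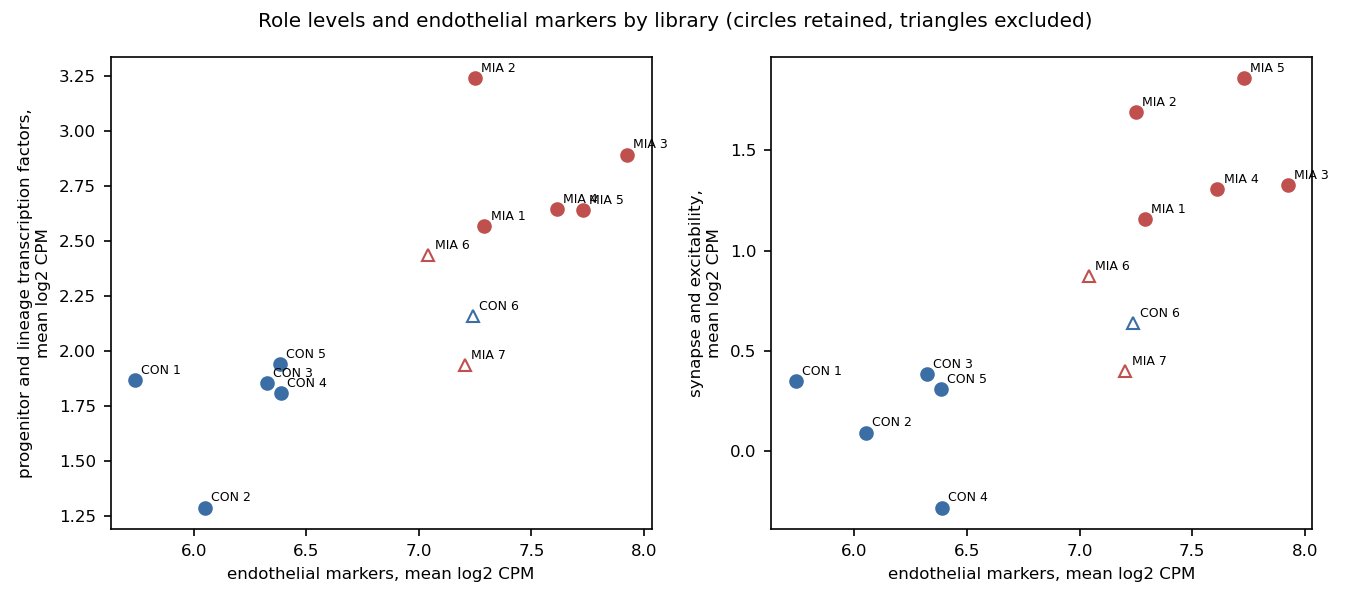
Mean log2 CPM of the tested transcription factors (left) and synaptic genes (right) against that of 10 endothelial markers, 1 point per library, circles for retained and triangles for excluded libraries. CON 6 and MIA 7 lie near MIA 1 and MIA 2 along the endothelial axis and lower along the neuronal axes.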

How the data were processed

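Poly(A)-primed Smart-Seq2 libraries were made from RNA of CD11b-selected cells and tagmented with Nextera XT, per the labels' protocols, a kit that does not mark strand. The authors deposited expected counts per gene, unscaled, in 1 table of 13 libraries; RSEM, STAR and DESeq2 are named in the submitters' processing notes, with neither version nor role, and the build and annotation were not given in the sources used here. Of the nonzero values 20.6% were not whole, and all were rounded. Symbols were matched for 55141 of 55487 IDs.

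Groups follow the titles: 5 CON and 5 MIA libraries were compared, and 3 marked as excluded entered 1 alternative and are shown as values. The test was edgeR 4.0.16 in R 4.3.3 (filterByExpr, TMM, robust quasi-likelihood, group only; Benjamini-Hochberg over 15511 genes, threshold 0.05). The SE is the absolute log2 fold change divided by the square root of F. Ratios used log2 CPM with a prior count of 2 and 2-sided exact permutation tests. Exon lengths are unions in GENCODE M21. The members, lists, pairs and rules were chosen with earlier results of these data known. Named with values in each retained library were members that passed and, in each role, up to 2 of the most abundant that did not; other members are given by their means, and other lists by counts, by up to 4 genes that passed and by up to 2 of the most abundant. Some genes of the other lists are not reported here. CPM stands for counts scaled by the TMM library size.

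Total counts ran from 25387055 to 35593541. Limits for a count of 0 use 3 counts and cover counting error only, since reads carry no molecular identifiers. No pair of libraries agreed within sampling noise (chi-square per gene at least 16.5). On simulated data the fit recovered 25.4% of 1.5-fold, 52.2% of 2-fold and 75.8% of 4-fold changes, and 6.42% of its calls were false. A gene that did not pass may therefore still differ between the groups. Alternatives were other scalings and filters, DESeq2 1.42.0, limma-voom (limma 3.58.1), a replicate block, other sets of libraries and each library left out in turn.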

Additional observations from a re-analysis of the deposited data

Results flagged for a closer look

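Each member was checked for a library far from the others of its group of 5, where the gap to the nearest library exceeded 0.71 of the whole range (Dixon's test); of 88 groups checked, 13 were marked, and chance marks about 1 in 20. In MIA 2, 5 lineage or microtubule values were high: Sox11 at 55.6 CPM (next 32.4), Dlx1 at 5.30 (next 2.96), Dlx2 at 5.53 (next 2.96), Tubb3 at 57.7 (next 42.9) and Map2 at 31.6 CPM (next 19.7). In CON 1, Ncam1 was high at 74.1 CPM (next 27.7), Map1b at 66.8 (next 46.7) and Map2 at 26.9 (next 15.2), and Stmn1 was low at 199 CPM (next 301). Neurod1 was low in CON 2 at 1.74 CPM (next 3.64), and Stmn3 was high in CON 3 at 9.89 CPM (next 7.60). In MIA 5, Mapt was low at 6.94 CPM (next 9.43) and Gad1 high at 4.02 CPM (next 1.73).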

How the results depend on the processing

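The 20 members that rose were 20 with the size factors of DESeq2 or with total counts alone, 18 without a filter, 24 in DESeq2, 19 in limma-voom, 9 of 16 tested with a filter of 10 CPM in 5 libraries, 13 with all 13 libraries, and 15 (without MIA 4) to 23 (without CON 1) when 1 library was left out; none fell in any of these fits. Of the 20, 14 passed in each of the 10 fits without 1 library. The median log2 fold change was 0.76 for the transcription factors and 0.72 for other signalling under the strict filter, which tests fewer genes and no synaptic member, and 0.83 for the transcription factors and 0.58 for the cytoskeleton with all 13 libraries; the other role medians moved by less than the spread between libraries. The 14 other neuronal genes that rose were 7 under the strict filter, 4 with all 13 libraries, and 6 to 23 without 1 library.

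Genes near 0 changed sign without a call. Slc17a6 was at −0.0010 with the size factors of DESeq2, −0.0017 without a filter, −0.00085 in DESeq2, −0.023 in limma-voom, −0.085 with all 13 libraries and −0.26 to 0.23 without 1 library. Tubb2b was at 0.039 with total counts, 0.015 under the strict filter, 0.068 in limma-voom, 0.13 without CON 1 and CON 2, and −0.17 to 0.28 without 1 library. Elavl4 was at −0.090 with all 13 libraries, −0.27 without CON 1 and CON 2 and −0.11 to 0.21 without 1 library, Map1a at −0.11 to 0.60 and Rbfox3 at −0.018 to 0.35 without 1 library.

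Without CON 1 and CON 2 the ratio differences were 0.88 for Sox11/Sox4, 0.83 for Stmn2/Stmn1 and 0.91 for Tubb3/Tubb2b, no longer past the threshold (exact permutation adjusted p = 0.0655); each had a p of 0.0179, the smallest that 3 against 5 libraries allow, so the loss says nothing about stability. With all 13 libraries Neurod1/Neurod6 (−0.92) and Snap25/Syt1 (0.92) passed, and Dcx/Gap43 was at 0.16. Without 1 library the differences ran from 0.95 to 1.20 for Sox11/Sox4, 0.72 to 0.91 for Stmn2/Stmn1, 0.84 to 1.23 for Tubb3/Tubb2b, −1.33 to −0.94 for Neurod1/Neurod6, 0.43 to 0.64 for Map1b/Map2, 0.52 to 1.13 for Snap25/Syt1, 0.69 to 1.38 for Gad1/Slc17a6, −0.22 to 0.097 for Dcx/Gap43, −0.52 to 0.36 for Nefl/Nefm, −0.0063 to 0.49 for Gria2/Grin2b and 0.065 to 0.72 for Elavl3/Elavl4, which was at 1.12 without CON 1 and CON 2. The causes of these changes were not tested.

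Same-numbered libraries of the groups correlated at 0.058 to 0.30 in their deviations from the group means, and in 1 of 5 numbers the control correlated best with its own number, so the numbers were not taken as pairs. With the replicate number as a block, 16 members and 11 other neuronal genes rose, Tubb2b was at 0.074 and Slc17a6 at −0.035. Dlx2, Neurod1, Dcx and Grin2b lost their calls with the block (edgeR adjusted p = 0.112, 0.0793, 0.111 and 0.0926). Sign changes within such pairs cannot go below p = 0.0625, and the ratio differences of 1.09, 0.81 and 1.10 for Sox11/Sox4, Stmn2/Stmn1 and Tubb3/Tubb2b then had an exact adjusted p of 0.138.

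Between 4 and 138 counts per library lie behind Neurod6, Syt16 and Scn2a, which limits the precision of their folds.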

Other observations

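Genes of 2 further neuron classes were measured, and these are also counted in the totals of other neuronal genes above. None of 5 tested genes of cerebellar granule neurons passed in edgeR, DESeq2 or limma-voom, or at an unadjusted p under 0.05 in edgeR; the zinc finger gene Zic1 was at 5.71 ± 3.52 CPM in CON and 7.57 ± 1.65 CPM in MIA (SD, n = 5 each), and the sums of the list were 7.19 to 14.6 and 9.39 to 18.8 CPM. Of 3 tested genes of monoamine and acetylcholine neurons 1 rose: Ddc, the enzyme that makes dopamine and serotonin from their precursors, went from 5.70 ± 2.24 to 12.8 ± 1.07 CPM (log2 fold change 1.17 ± 0.27, SE; edgeR adjusted p = 0.0140) with no overlap between the groups. The other tested genes of this list did not pass. Slc18a2 was at 3.03 ± 1.19 and 3.55 ± 0.618 CPM (SD; edgeR adjusted p = 0.712). Slc5a7 was at 0.397 ± 0.271 and 0.552 ± 0.738 CPM (SD; edgeR adjusted p = 0.854). The markers Th, Slc6a3, Slc6a4, Tph2, Dbh and Chat had too few reads to be tested. Which cells held the Ddc RNA was not tested.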
